A study of Mus musculus with 8 samples.

Results

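Keratins are the intermediate filament proteins of epithelial cells, and 9 of their genes were followed here in tumour cells sorted from mouse skin squamous cell carcinomas (SCC): Krt5, Krt14 and Krt15 of the basal layer, Krt6a, Krt6b, Krt16 and Krt17 of wounded, hyperproliferative and follicular epidermis, and Krt1 and Krt10 of the differentiating layers. They were chosen by gene symbol, and 8 of the 9 had a probe set of their own among the 17097 genes measured. Krt17 had no probe set under its name in the platform annotation and is not analysed here. Where a gene had several probe sets, the one with the highest mean over the 8 arrays represents it.

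A keratin filament is built from dimers of 1 type I and 1 type II chain, so the genes are used in partner pairs. Basal keratinocytes make Krt5 with Krt14, and cells that leave the basal layer switch to Krt1 with Krt10. Krt6a, Krt6b, Krt16 and Krt17 are low in resting epidermis between follicles and are induced by wounding and in carcinomas, which is why they are called stress keratins. Krt15 is a type I chain of basal cells and of the hair follicle bulge, the niche in which mouse follicle stem cells carry CD34.

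The cells came from tumours of K14-HPV16 mice (strain label FVB/C57/Bl6), in which the promoter of Krt14 itself drives papillomavirus genes in basal keratinocytes; the transgene is not analysed here. Per the series design, spontaneous or DMBA-TPA induced tumours were grafted onto nude, immunodeficient hosts and passed on serially, and well differentiated SCC (WD-SCC) gave way to poorly differentiated SCC, which the sample titles write as PD/S-SCC and which is called PD-SCC here. Cells positive for α6-integrin and CD34 were sorted after depletion of haematopoietic and endothelial cells, so every group shares the transgene, the host type and the sort. Lineage OT7 gave 2 arrays per stage, and OT14 and OT15 gave 1 each, in all 4 WD-SCC and 4 PD-SCC arrays; the labels do not tell which lineage was chemically induced, the passage or the age of the animals. The labels call the arrays biological replicates but do not say if both OT7 arrays of a stage were made from different tumours, and p-values rest on the spread among these arrays, part of which may be technical.

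Values are log2 units of the deposited RMA table, in which a difference of 1 is a factor of 2. The highest of 15 bacterial control probe sets lay at 3.82 to 4.37 on the WD-SCC arrays and at 3.61 to 3.81 on the PD-SCC arrays. These controls were chosen by name and taken to have no matching RNA, and values at or below the highest are treated as background. Over all lineages the sort marker genes did not pass the test between stages. Itga6 had a log2 difference of -0.30 (adjusted p = 0.796, limma) and Cd34 one of 1.67 (adjusted p = 0.241). These values join unlike changes of single lineages. Itga6 was lower in PD-SCC for OT7 (-1.67) and OT14 (-0.40) but higher for OT15 (2.53). Cd34 was higher in PD-SCC for OT15 (5.15), with smaller differences for OT14 (1.09) and OT7 (0.21). The sort markers were therefore not level between stages in every lineage. In OT15 WD-SCC the value of Cd34 was 3.58, below the highest control there (4.37), and the other 3 WD-SCC arrays held 6.72 to 7.002. The stage effect was also fitted without this array, and the 5 keratins called below passed then too.

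The promoter windows of 3 of the 9 keratins are in the RefSeq table (build GRCm38.p6). Those of Krt14 and Krt10 belong to starts inside the annotated genes, 1480 and 8085 bases from the gene's 5′ end, and are not shown. The window of Krt5, whose start is the gene's annotated 5′ end, is printed as the 250 bases before that start, on the minus strand. The match to a motif searched is in capitals. The window lies at chr15:101712906-101713155.
Krt5: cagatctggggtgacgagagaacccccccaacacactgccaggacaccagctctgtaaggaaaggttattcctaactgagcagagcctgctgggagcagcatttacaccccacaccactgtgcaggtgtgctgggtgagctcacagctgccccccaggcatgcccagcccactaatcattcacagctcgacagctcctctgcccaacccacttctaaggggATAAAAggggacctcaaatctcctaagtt

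The motifs searched on both strands were the TATA box TATAAA, its variant ATAAAA, the AP-1 motif TGANTCA and the AP-2 motif GCCNNNGGC; TATAAA and ATAAAA can overlap. Krt5 held ATAAAA beginning 29 bases before the start and no match to the other motifs in these bases. Of 32851 windows of the same length, 17.0% held ATAAAA, 12.4% TATAAA, 6.75% the AP-1 motif and 13.7% the AP-2 motif. A match describes the letters and is not a measured site.

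Between stages, 5 keratins fell in PD-SCC, namely Krt5, Krt14, Krt6a, Krt6b and Krt16, each by 32.2-fold or more on the fitted scale. With the 2 OT7 arrays of each stage averaged, 3 of them passed, Krt5, Krt6b and Krt16, where 199 of the 17097 genes were called lower. In the fit of all 8 arrays none of the keratins rose, where 7.78% of all genes were called higher. The log2 differences of these 5 were below -4, as were those of 0.626% of all genes. Krt15, Krt1 and Krt10 did not pass the test, and all of their values lay close to or under the controls in both stages. Above the highest control on all 4 arrays of a stage were 7 of the 8 keratins in WD-SCC, where 40.1% of all genes were, and 5 of the 8 in PD-SCC, where 51.5% were. Across all genes 4.81% were called lower in PD-SCC, with lineage as a block in limma and an adjusted p under 0.05. The median log2 difference of the 8 keratins was -5.33, against -0.06 over all genes. In bulk RNA of sorted cells, fewer cells that make a keratin and less keratin RNA per cell cannot be told apart.

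**Figure D1:**
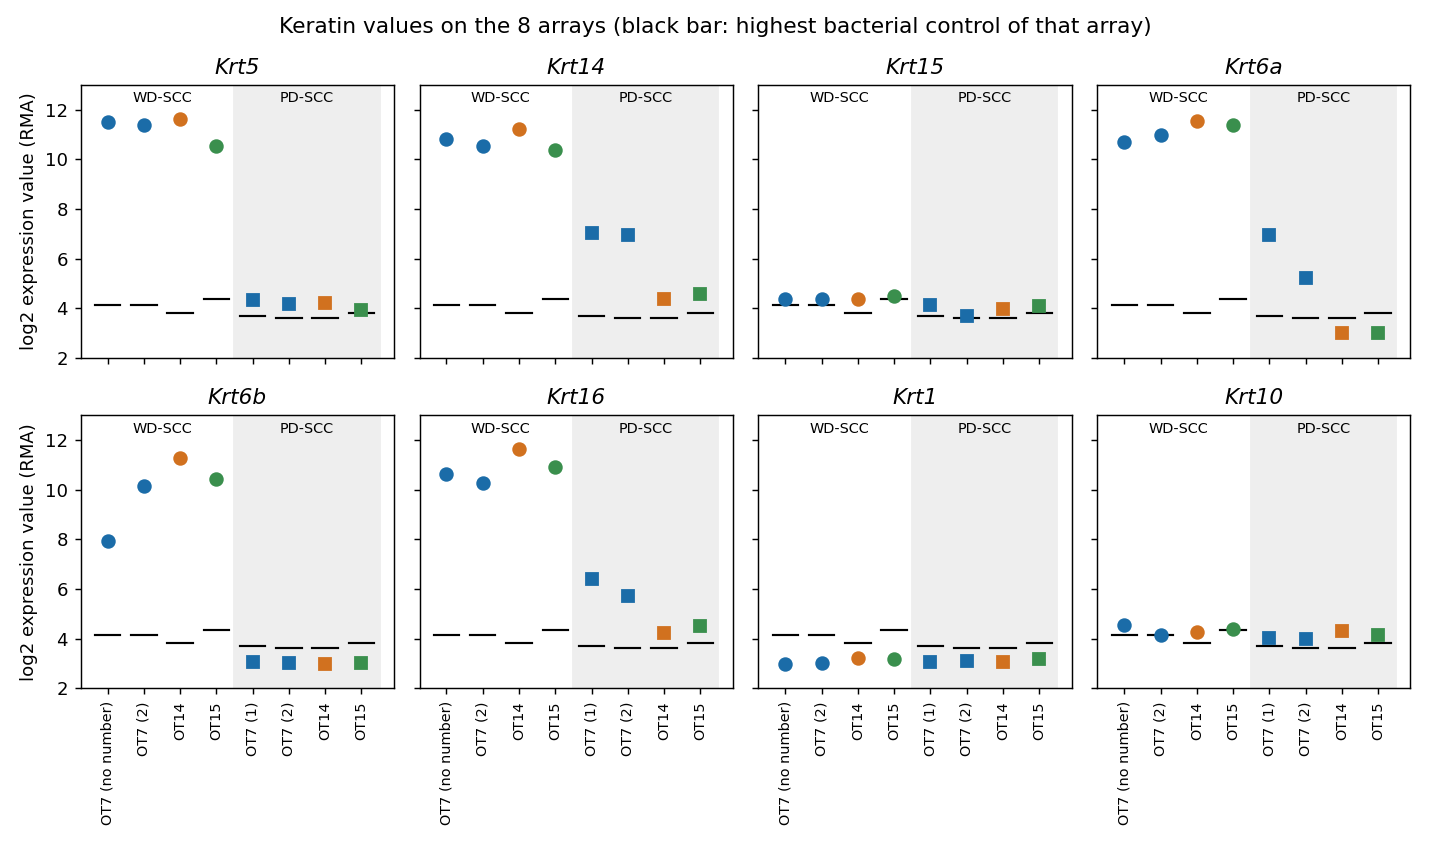
Log2 expression value (vertical axis) of each of the 8 keratins on the 4 WD-SCC arrays (circles) and the 4 PD-SCC arrays (squares, grey field), coloured by lineage (blue OT7, orange OT14, green OT15), with a black bar at the highest bacterial control of each array. Krt5 and Krt6b drop to 4.33 or less on every PD-SCC array, Krt14, Krt6a and Krt16 stay higher on the 2 blue OT7 PD-SCC squares, Krt15 and Krt10 lie just above the bars, and Krt1 lies under them.

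Krt5 encodes the type II chain of basal keratinocytes. In WD-SCC it measured 11.50 and 11.39 on the OT7 arrays, 11.62 in OT14 and 10.53 in OT15. In PD-SCC it measured 4.33 and 4.17 in OT7, 4.22 in OT14 and 3.93 in OT15. The stages stood far apart, and every PD-SCC value was within 0.61 of the bacterial control of its array. Krt5 fell by 7.10 ± 0.15 (SE), or 137-fold (WD-SCC 11.26 ± 0.49, PD-SCC 4.16 ± 0.17, mean ± SD, n = 4, limma adjusted p = 9.11e-05), and ranked 13 of 17097 genes by the size of the fall.

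Krt14, the type I partner of Krt5, measured 10.82 and 10.54 on the OT7 WD-SCC arrays, 11.24 in OT14 and 10.36 in OT15. In PD-SCC it measured 7.02 and 6.94 in OT7, 4.39 in OT14 and 4.57 in OT15. The stages did not overlap, but within PD-SCC the OT7 arrays stood above those of OT14 and OT15 by over 2 log2 units. Krt14 fell by 5.01 ± 0.58 (SE), or 32.2-fold, between stages (limma adjusted p = 0.00764). With the OT7 arrays averaged the log2 difference was -5.44 and did not pass (adjusted p = 0.0562).

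Krt15 measured between 4.36 and 4.51 in WD-SCC and between 3.71 and 4.13 in PD-SCC. The groups did not overlap, which was also so, in the same direction, for 13.3% of all genes. The log2 difference was -0.43 ± 0.12 (SE, limma adjusted p = 0.069). Krt15 was above the highest of the 15 controls on all 8 arrays, by at most 0.54 on the WD-SCC arrays. These cells, sorted on CD34, thus held little Krt15 signal at either stage. With no lineage block the adjusted p was 0.0459.

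Krt6a is a type II stress keratin. It measured 10.71 and 10.99 on the OT7 WD-SCC arrays, 11.53 in OT14 and 11.37 in OT15. In PD-SCC the OT7 arrays held 6.94 and 5.22, while OT14 at 2.995 and OT15 at 3.03 were under their controls of 3.61 and 3.81. All WD-SCC values exceeded all PD-SCC values, and the PD-SCC arrays spread more widely (SD 1.91) than the WD-SCC arrays (SD 0.37, n = 4). Krt6a fell by 6.61 ± 0.85 (SE, limma adjusted p = 0.0102), a value that rests in part on 2 arrays at background, and with values under the controls raised to them the log2 difference was -6.25. With the OT7 arrays averaged it was -7.22 and did not pass (adjusted p = 0.0553).

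Krt6b, the neighbouring and closely related type II gene, measured 7.93 on the unnumbered OT7 WD-SCC array, 10.14 on the other, 11.27 in OT14 and 10.43 in OT15. On the PD-SCC arrays it lay between 2.98 and 3.04, under the controls on all 4. Computed against the controls, the fall of Krt6b was at least 76.1-fold (limma adjusted p = 0.0045). Its low WD-SCC value was not shared by Krt6a, which stood at 10.71 on the same array.

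Krt16, a type I stress keratin that pairs with the Krt6 chains, measured 10.62 and 10.29 on the OT7 WD-SCC arrays, 11.64 in OT14 and 10.91 in OT15. In PD-SCC it measured 6.39 and 5.70 in OT7, 4.22 in OT14 and 4.53 in OT15. The stages did not overlap and the OT7 arrays were again the highest of PD-SCC. Krt16 fell by 5.65 ± 0.57 (SE), or 50.4-fold (limma adjusted p = 0.00567).

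The pair of the differentiating layers was near background. Krt1 lay between 2.99 and 3.23 in WD-SCC and between 3.06 and 3.18 in PD-SCC, under the highest control on all 8 arrays. Krt10 lay between 4.15 and 4.56 in WD-SCC and between 4.01 and 4.31 in PD-SCC, above the highest of the 15 controls on every array. Its log2 difference was -0.23 ± 0.13 (SE, limma adjusted p = 0.287). Neither gene had more than 1 probe set, and no order is read from the values of Krt1. The WD-SCC cells thus carried high signal for Krt5, Krt14, Krt6a, Krt6b and Krt16 and none above the controls for Krt1.

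Within lineages, the stage comparison was fitted with a separate mean for each lineage at each stage, so that the spread was estimated from the OT7 duplicates alone (2 residual degrees of freedom). In OT7 all of the 5 keratins were called lower, where 2.87% of all genes were. In OT14 and in OT15 the 3 genes Krt5, Krt14 and Krt16 were called, where 0.661% and 0.766% of all genes were. Krt6a and Krt6b had the larger differences there without passing, in OT14 at -8.53 (limma adjusted p = 0.0645) and -8.28 (adjusted p = 0.0952), and in OT15 at -8.35 (adjusted p = 0.0539) and -7.40 (adjusted p = 0.0811).

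**Figure D2:**
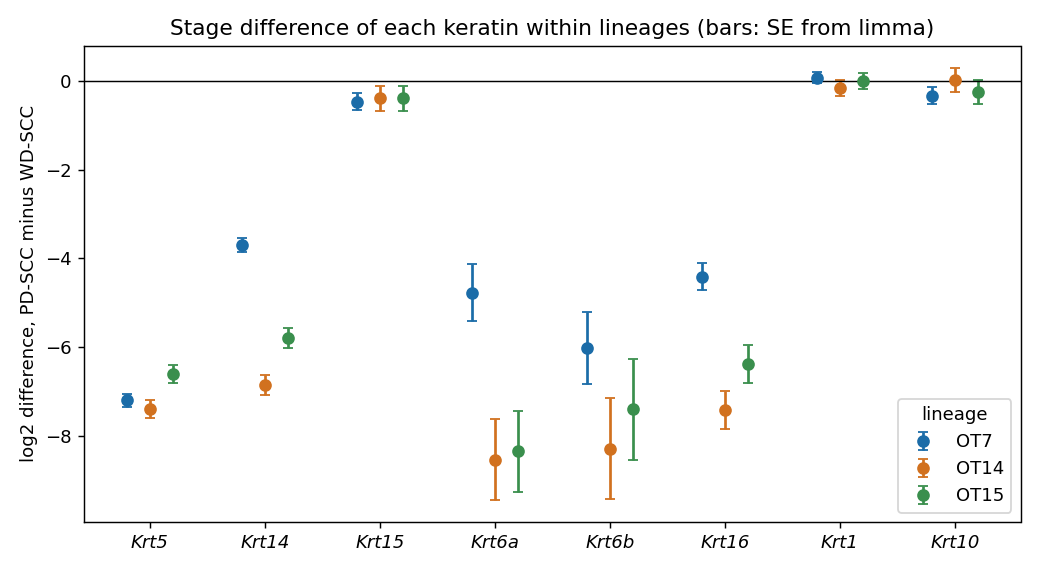
Log2 difference between PD-SCC and WD-SCC (vertical axis, below 0 is lower in PD-SCC) for each keratin within OT7 (blue), OT14 (orange) and OT15 (green), with the SE of the limma fit as bars. Krt5 differs by -6.60 to -7.40 in the 3 lineages, while Krt14 differs by -3.69 in OT7 and by -6.85 and -5.79 in the others.

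The measured fall of Krt5 was of like size in each lineage, 146-fold in OT7, 168-fold in OT14 and 97.2-fold in OT15. Its PD-SCC values lay only 0.12 to 0.61 above the controls, so these folds are not exact and their likeness is limited by the background. The fall of Krt14 was 12.9-fold in OT7, 115-fold in OT14 and 55.5-fold in OT15. For Krt16 the values were 21.2-fold in OT7, 171-fold in OT14 and 83.3-fold in OT15. In OT14 and OT15 the PD-SCC values of Krt14 and Krt16 were also close to the controls, 0.61 to 0.78 above them. Krt6a was 27.3-fold lower in OT7, and in OT14 and OT15, where its PD-SCC values were under the controls, its log2 differences of -8.53 and -8.35 set no exact fold.

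The smaller fall in OT7 was tested as a difference between the lineages' stage effects. For Krt14 the stage effect in OT7 was less negative than in OT14 by 3.15 ± 0.28 (SE) and than in OT15 by 2.10 ± 0.28, with an unadjusted p of 0.000924 in the limma F test and an adjusted p of 0.181. For Krt16 the differences were 3.01 ± 0.52 and 1.97 ± 0.52 (adjusted p = 0.258). For Krt6a they were 3.76 and 3.58 (adjusted p = 0.391) and are not exact, because its OT14 and OT15 PD-SCC values were under the controls. None of the 17097 genes passed this test in limma after adjustment (0%), and 2043 (11.9%) had an unadjusted p under 0.05, among them 3 of the 8 keratins. A difference between lineages in the stage effect of these keratins was therefore not detected after adjustment. For Krt5 the adjusted p was 0.531.

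The OT7 PD-SCC signal was seen by each probe set of the genes concerned. The second probe set of Krt14 measured 5.46 and 5.32 on the OT7 PD-SCC arrays, 4.09 in OT14 and 4.10 in OT15. It fell by 5.10 ± 0.34 between stages (limma over all probe sets, adjusted p = 0.00291), close to the 5.01 of the probe set used, whose suffix (x_at) marks probes that may match other genes. The 2 other probe sets of Krt6a measured 6.20 and 6.14 on the first OT7 PD-SCC array, 4.55 and 4.43 on the second, and 3.80 to 3.92 in OT14. Keratin genes share long stretches of sequence, so a part of the signal from related genes cannot be told apart for these probe sets. Krt6b, with 1 probe set, showed no such signal, at 3.04 and 3.01 on the OT7 PD-SCC arrays.

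**Figure D3:**
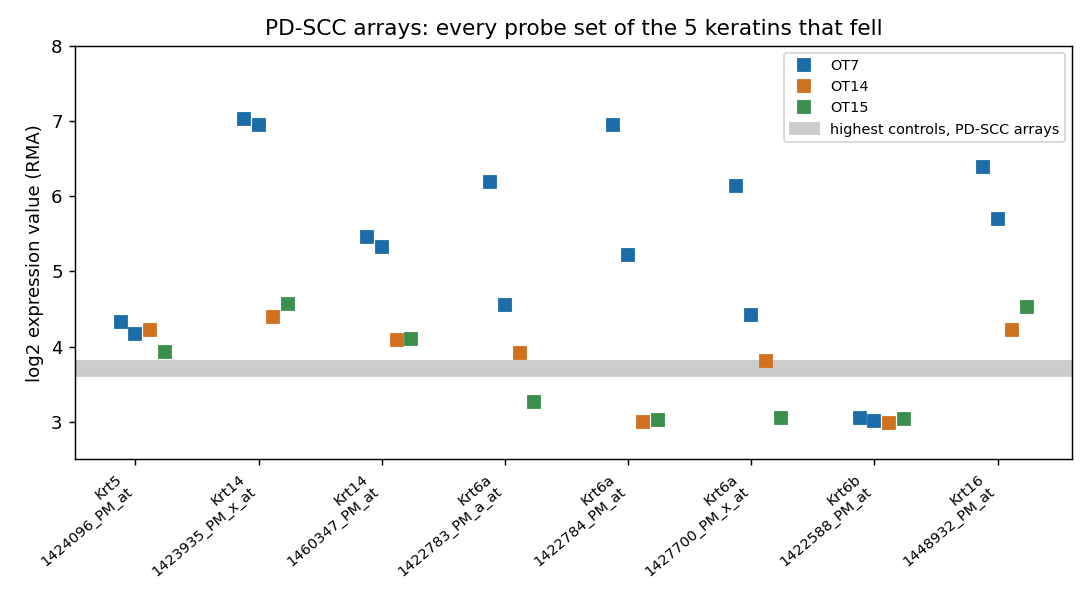
Log2 expression value (vertical axis) on the 4 PD-SCC arrays for every probe set of the 5 keratins that fell, coloured by lineage (blue OT7, 2 arrays; orange OT14; green OT15), with a grey band over the highest bacterial controls of those arrays. Both probe sets of Krt14, all 3 of Krt6a and that of Krt16 are highest on the OT7 arrays, and those of Krt5 and Krt6b are not set apart by lineage.

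Whether partner chains changed by unequal amounts was read from the log2 difference of 2 keratins on each array, of which only the change between stages has a meaning. Krt5 minus Krt14 was 0.68 and 0.85 on the OT7 WD-SCC arrays, 0.38 in OT14 and 0.17 in OT15. It was -2.70 and -2.77 on the OT7 PD-SCC arrays, -0.17 in OT14 and -0.64 in OT15. On every PD-SCC array this difference was thus lower than on any WD-SCC array, with the OT7 arrays farthest. The change was -2.09 (two-sided exact permutation p = 0.0286, the smallest that 4 arrays against 4 allow, adjusted p = 0.114 over 4 pairs; within lineages the exact p was 0.0833, again the smallest possible). Because the PD-SCC values of Krt5 sit near the controls, its fall can be larger than measured. In OT14 and OT15 PD-SCC the values of Krt14 sat near the controls too, 0.78 and 0.76 above them, beside 0.61 and 0.12 for Krt5. The differences on these arrays therefore do not measure how the partners stood to each other.

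The other pairs showed no change past the threshold. Krt6a minus Krt16 changed by -0.95 (exact permutation p = 0.143, adjusted p = 0.229), Krt1 minus Krt10 by 0.22 (exact permutation p = 0.171, adjusted p = 0.229) and Krt6a minus Krt6b by 0.32 (exact permutation p = 0.771). With arrays at background in several of these pairs, such values do not show that the partners changed alike.

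A difference between lineages over both stages was not detected after adjustment for any of the 8 keratins (limma F test of the lineage coefficients, smallest adjusted p = 0.641 for Krt5). None of the 17097 genes passed that test either (0%), with 1251 at an unadjusted p under 0.05, among them 1 of the keratins.

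The rest of the keratin family, listed with these results known, was mostly dim. Of 16 other epithelial keratins measured, 3 fell and none rose (median log2 difference -0.53), against the 5 of 8 above. Krt80 fell by 4.12 (limma adjusted p = 0.0131), with 2 of the 4 PD-SCC arrays above the controls, Krt78 fell by 2.14 (adjusted p = 0.0383), and Krt19, a chain of simple and follicular epithelium, fell by 0.65 (adjusted p = 0.046) from values near the controls. None of 16 keratins of the hair shaft and inner root sheath passed the test in either direction, and 8 of them were under the controls on all arrays. Among them Krt75 had a log2 difference of -2.24 without passing (limma adjusted p = 0.115). The type I genes Krt14, Krt15, Krt16 and Krt10 lie on chromosome 11 and the type II genes Krt5, Krt6a, Krt6b and Krt1 on chromosome 15. Among the other measured keratins of chromosome 11, 1 of 16 fell, and of chromosome 15, 2 of 17, with 3 above the controls on every WD-SCC array on each chromosome.

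Other keratins were high on some WD-SCC arrays and not on others; these were chosen after their values were seen. Krt23 measured 9.01 in OT14 WD-SCC and 9.33 in OT15 WD-SCC, against 4.69 and 5.14 in OT7 WD-SCC, and 3.57 to 3.93 in PD-SCC. Krt13, a type I chain of internal stratified epithelia, measured 8.02 in OT14 WD-SCC and between 3.49 and 4.32 on the other 7 arrays. Krt75, a type II chain of the follicle, measured 7.44 in OT14 WD-SCC and 6.31 on the OT7 WD-SCC array numbered 2, and 2.85 to 4.21 elsewhere. The uniform WD-SCC level of Krt5, Krt14, Krt6a and Krt16, with SDs from 0.37 to 0.57, was thus not found for each keratin.

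The simple epithelial pair Krt8 and Krt18 did not pass the test over all lineages, and within OT7 Krt8 rose by 5.73 (limma adjusted p = 0.0275). Krt8 measured 3.23 and 4.10 in OT7 WD-SCC and 10.13 and 8.67 in OT7 PD-SCC, 4.44 and 8.20 in OT14, and 6.57 and 3.56 in OT15, each time WD-SCC first (log2 difference 3.06, limma adjusted p = 0.23; within OT14 3.77, adjusted p = 0.187, and within OT15 -3.01, adjusted p = 0.202). Its partner Krt18 lay between 7.64 and 10.00 in WD-SCC and between 6.58 and 9.92 in PD-SCC (adjusted p = 0.316). The lineages with high Krt8 in PD-SCC, OT7 and OT14, were thus not the same as the lineage with the higher Krt14, Krt16 and Krt6a there, OT7 alone.

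Keratin filaments are anchored at desmosomes and hemidesmosomes by linker proteins. Of 13 measured anchors and linkers, 6 fell and 2 rose, with a median of -1.76. The desmosomal linker gene Dsp fell by 7.49 (limma adjusted p = 9.21e-05) to values above the controls on 1 of the 4 PD-SCC arrays, so this size is not exact, the envoplakin gene Evpl fell by 4.09 (adjusted p = 0.00662) and the plakoglobin gene Jup fell by 2.94 (adjusted p = 0.0103). The others that fell were Ppl, Eppk1 and Col17a1. The 2 that rose were Plec by 1.52 (adjusted p = 0.0327) and Dst by 1.75 (adjusted p = 0.0145), large cytolinkers that also bind actin and other filaments and are made in many cell types.

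Of 19 measured genes for transcription factors and regulators known to act on keratin genes, 8 fell and none rose (median log2 difference -0.51). Grhl3, a factor of epidermal differentiation, fell by 4.50 (limma adjusted p = 0.00455). Trp63, the gene of p63 and a master factor of stratified epithelium, fell by 3.78 (adjusted p = 0.00704), from 6.35 to 8.56 over the WD-SCC arrays to 3.44 to 3.79 over the PD-SCC arrays. Tfap2c fell by 0.66 (adjusted p = 0.0154) between values near the controls, above them on 3 of 4 WD-SCC and 2 of 4 PD-SCC arrays. Grhl3 and Trp63 were above the controls on 1 of 4 PD-SCC arrays each, so the sizes of their falls are not exact either. On the OT7 PD-SCC arrays, where Krt14, Krt16 and Krt6a were higher than in OT14 and OT15, Trp63 stood at 3.44 and 3.75 and Dsp at 3.74 and 3.41, against controls of 3.72 and 3.63. Other genes of these lists stood above those controls on 1 or both, Grhl3 at 3.52 and 4.76 and Jup at 6.94 and 6.38. In OT14 and OT15 PD-SCC Grhl3 stood at 3.13 and 3.79, and Jup at 5.985 and 7.79. The linker gene Pkp1 differed between stages by 0.19 in OT7, against -4.11 in OT14 and -3.32 in OT15, without passing in any lineage.

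**Figure D4:**
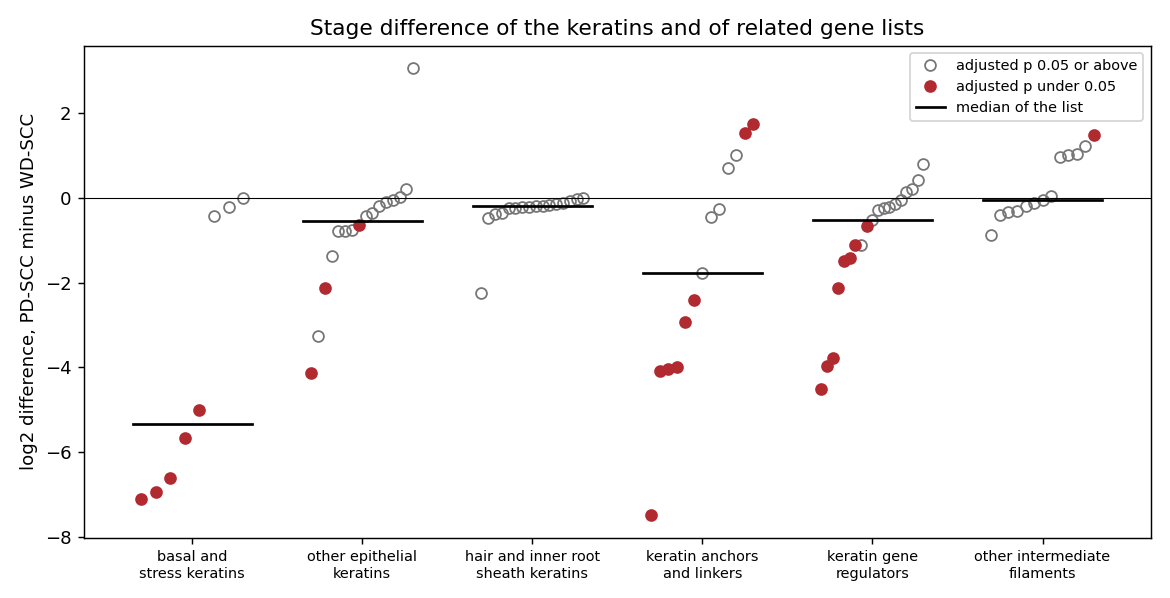
Log2 difference between PD-SCC and WD-SCC (vertical axis) for each gene of the basal and stress keratins and of 5 related lists, with filled red circles for an adjusted p under 0.05 in limma, open circles for others and a black line at each list's median. The keratin median is -5.33, and the medians of the other lists lie between -1.76 and -0.04.

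Of 13 other intermediate filament genes, 1 rose and none fell. Lmna, which encodes the nuclear lamins A and C, rose by 1.49 (limma adjusted p = 0.00977). Vim, the vimentin gene of mesenchymal cells, was already high in WD-SCC at 9.10 to 10.30 and lay between 10.45 and 11.12 in PD-SCC (log2 difference 1.03, adjusted p = 0.0738). The WD-SCC arrays therefore held high signal for Vim as well as for Krt5 and Krt14. Bulk RNA does not tell whether the same cells made them.

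Markers of other cells were read beside these falls, and their part in them was not tested. Of 9 epithelial markers without keratins, 6 fell and none rose, and their mean level was 6.92 to 7.60 on the WD-SCC arrays and 3.96 to 4.37 on the PD-SCC arrays, 4.37 and 4.17 of these in OT7. Among them Cldn4 fell by 7.37 (limma adjusted p = 0.000622), Rab25 by 5.08 (adjusted p = 0.000622) and Epcam by 4.62 (adjusted p = 0.0015). The E-cadherin gene Cdh1 fell by 2.83 (limma adjusted p = 0.00219), and against the controls by at least 4.31-fold. In PD-SCC, Cldn4 was above the controls on 1 array and Rab25 on 2. None of 10 fibroblast markers passed, with mean levels of 4.32 to 7.57 in WD-SCC and 5.38 to 6.19 in PD-SCC and 1 under the controls on all arrays. Of 8 endothelial markers, 2 fell, and the list's level was 4.15 to 6.52 in WD-SCC and 3.67 to 4.18 in PD-SCC. Tie1 fell by 3.81 (limma adjusted p = 0.0153), and against the controls by at least 12.2-fold. Cldn5 fell by 1.19 (limma adjusted p = 0.00951). Of 8 haematopoietic markers, 1 fell, the macrophage gene Cd68 by a log2 value of -2.79 (adjusted p = 0.0141), at levels of 4.56 to 5.19 and 3.83 to 4.56, while Ptprc, the pan-leukocyte gene, was under the controls on all arrays. None of 6 melanocyte markers passed (3.64 to 3.79 and 3.43 to 3.53), and 4 of them were under the controls on all arrays.

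Likeness to a keratin was measured as the root mean square distance, in log2 units over the 8 arrays, between profiles centred on their own means. The 5 genes nearest to Krt5, members left out, were Dsp at 0.34, Asprv1 at 0.35, Nccrp1 and Cdsn at 0.48 and Mal at 0.60. Asprv1 and Cdsn encode a protease and an adhesion protein of the outer epidermis. The 5 nearest to Krt6a were Sbsn at 0.71, Klk10 at 1.00, Il1rn at 1.01, Nccrp1 at 1.13 and Cdsn at 1.14. Sbsn, the gene of suprabasin, measured 6.23 and 6.52 on the OT7 PD-SCC arrays, 4.58 in OT14 and 4.41 in OT15, and Klk10, a kallikrein protease gene, measured 6.83 and 6.89, 4.57 and 4.91. These 2 genes thus shared with Krt14, Krt16 and Krt6a the higher level on the OT7 PD-SCC arrays, a part of the profile by which they were picked. Krt10 stayed near the controls, and its nearest genes, Srcin1, Ndnf, 4930555F03Rik, Gm1070 and Ttc22, at distances of 0.04 to 0.05, were as dim.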

How the data were processed

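Gene expression of sorted cells was measured on 8 Affymetrix arrays. The authors deposited 1 log2 value per probe set and array, and the submitters' processing notes name affy and RMA (background correction, quantile normalisation, summary per probe set), without versions. That they are log2 follows from their range (2.40 to 13.2). Scanner files were not used. Gene names came from the platform's annotation table, and 99.1% of them could be brought up to date from RefSeq by Entrez number. Of 45141 probe sets, 28898 carried a single symbol, 551 carried several, 15588 carried none and 104 were controls, which left 17097 genes.

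The stage effect was fitted with R 4.3.3 and limma 3.58.1 (lmFit, then eBayes; two-sided tests), lineage entering as a block and 4 residual degrees of freedom remaining; p-values were adjusted by Benjamini-Hochberg over all genes, with a threshold of 0.05. Labelled replicate numbers count arrays within a lineage and stage, so arrays were paired by lineage, as the series design gives it; the correlation of a lineage's WD-SCC and PD-SCC deviations from their stage means was -0.04 for OT7, 0.02 for OT14 and 0.06 for OT15. Where no array of a stage exceeded the highest of 15 bacterial controls taken as unspiked, the fold is given as a bound. The scripts were tested on simulated data. Python 3.11.15 and matplotlib 3.10.9 drew the plots. The alternatives were no block, averaged OT7 arrays, the mean of probe sets, a filter on dim genes (kept where either stage's mean reached 6), scaling to the 75th percentile, cyclic loess, a trended robust prior, values raised to the controls, and leaving out each array or OT7; a wider set of 27 controls was added after seeing the data.

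The members, the lists and the tests were chosen with earlier results of these data known. Named genes are the members and up to 3 called genes per list with the smallest p. Vim, Krt8, Krt18, Trp63, Cdh1, Itga6 and Cd34 were fixed, and the 5 nearest profiles of Krt5, Krt6a and Krt10 are named too. Ppl, Eppk1, Col17a1, Pkp1, Plec, Dst, Krt13, Krt23, Krt75 and Ptprc were chosen after their values were seen.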

Additional observations from a re-analysis of the deposited data

Results flagged for a closer look

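Of 80 groups of 4 arrays checked, those of the 8 keratins and the genes named beside them, 3 held an array whose gap to the nearest other exceeded Dixon's critical value, and chance flags about 1 in 20 groups. None was a keratin of the group described here. Cd34 was low on the OT15 WD-SCC array (gap 0.919 of the range), at 3.58. Krt13 was high on the OT14 WD-SCC array (gap 0.890 of the range), at 8.02. Tfap2c was high on the same array (gap 0.939 of the range), at 4.65 against 4.29 to 4.31.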

How the results depend on the processing

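Krt5, Krt6b and Krt16 stayed lower under each alternative run that included them, and past the threshold in each with a usable p, with log2 differences of -7.50 to -7.00, -7.84 to -5.94 and -6.90 to -5.07. Krt14 (-6.32 to -4.39) and Krt6a (-8.44 to -5.96) kept their direction, and lost the call only with the OT7 arrays averaged (adjusted p = 0.0562 and 0.0553), where 3 keratins passed. With no replicate block, 6 keratins passed, Krt15 being the one gained (adjusted p = 0.0459). Krt15 also passed with values raised to the controls (adjusted p = 0.0188), as did Krt1 at -0.42, where its value is the difference of the controls themselves. With the wider set, limma's variance prior had infinite degrees of freedom, and its p-values are not used; Krt15 and Krt1 each stood at -0.77. Krt1, under the controls, turned to 0.079 with cyclic loess, and lay between -0.029 and 0.050 without single arrays. The median over all genes moved from -0.06 to -0.21 with scaling to the 75th percentile.

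Over all genes 2154 passed (2123 without the block), 401 with the OT7 arrays averaged, 246 without lineage OT7, and 886 to 1689 without single arrays, the lowest without the OT7 PD-SCC array numbered 1; leaving out any array but the unnumbered OT7 WD-SCC one cut the count by over 1.5 times. The split of higher and lower calls, 1331 and 823, was 1150 and 1205 with the 75th percentile, 864 and 864 with cyclic loess and 1343 and 585 with dim genes filtered. The change of Krt6a minus Krt6b ranged from -0.47, without that array, to 0.84, and OT7's difference in the stage effect of Krt15 from -0.29 to 0.14 without single OT7 arrays. With an OT14 or OT15 array left out, that lineage no longer adds to the stage effect. No other alternative with a usable p changed a call or a direction of the 8 keratins. The cause of these changes was not tested. Values near the controls limit how large a fall can be measured, and 8 arrays limit the precision.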
